A study of Mus musculus with 6 samples.

Results

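The transcription of glycolysis and of the pentose phosphate pathway was examined in mouse splenic CD8+ T cells through 35 genes, taken by gene name from the 54446 genes in the files. They comprise 27 genes of glycolysis with its glucose and lactate carriers, 7 genes of the pentose phosphate pathway, and *Hif1a*. Of all genes, 14991 averaged 1 FPKM or more across the 6 libraries and were tested, among them 34 of the 35. *Hk3*, a hexokinase isozyme of myeloid cells, was listed at 0 in every library and was not tested. A second gene record named *Aldoa* was also listed at 0 throughout and was not used.

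RNA-Seq was performed on 2 libraries for each of 3 groups. All cells came from the spleens of wild type C57BL/6 mice 8 weeks old and were purified by negative selection. Unstimulated cells were taken fresh. Control cells were stimulated for 72 h on plates coated with antibodies against CD3 and CD28, away from magnets. SMF-treated cells received the same stimulation on permanent magnets with a field of 0.3 T. The labels do not say whether replicates came from separate mice or cultures, so that p values measure the spread between these libraries only, which may be technical.

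Glycolysis splits 1 molecule of glucose into 2 of pyruvate and yields ATP and NADH in the cytosol. The pentose phosphate pathway branches off at glucose 6-phosphate: its oxidative arm yields NADPH, and its non-oxidative arm interconverts sugars and yields the ribose of nucleotides. Resting CD8+ T cells use little glucose, and activated ones convert much of it to lactate even where oxygen is present, a shift for which the transcription factors HIF-1 and MYC are known.

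The values are FPKM, fragments normalised to transcript length and library size, summed over the transcripts of a gene. Depth, taken as bases covered, was lowest in control replicate 1 (64.4 Mb) and highest in SMF replicate 1 (259 Mb), and between 2 and 4 of the 35 genes were listed at 0 in a library. The folder dates in the file headers were shared by unstimulated and control replicate 1, by unstimulated and control replicate 2, and by both SMF libraries, so that this date and the field cannot be told apart. Protein-coding genes took 69.2% and 68.7% of all FPKM in the SMF libraries and between 49.1% and 50.5% in the other 4. Genes annotated as antisense took 12.3% and 12.8% in the SMF libraries and between 19.5% and 24.7% in the others. The kit marks the strand of each RNA, and StringTie was run on reads set as stranded, so that a level counts only the reads which that setting placed on the gene's own strand. *Malat1*, an abundant nuclear RNA of most cell types, ranged from 12.1 to 108 FPKM, and *mt-Co1*, an abundant mitochondrial gene, was listed at 0 in every library. Whether the setting matched the orientation of the reads was not tested. It touches every level given here, so that levels, ranks and shares within a library are no measure of absolute abundance. Since the antisense share differed between the SMF and the other libraries, comparing libraries need not remove its part.

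CD8 T cell markers (*Cd3d*, *Cd3e*, *Cd3g*, *Cd8a*, *Cd8b1* and *Thy1*) were above 0 in all libraries, with summed FPKM of 608 and 779 in unstimulated, 365 and 581 in control and 938 and 850 in SMF-treated cells. Of these 6 markers *Cd8a* and *Cd8b1* fell in control against unstimulated cells, and *Cd3d* and *Cd8a* rose in SMF-treated against control cells, with *Cd8a* at 35.5 and 60.0 FPKM in control and 192 and 186 in SMF-treated cells. Of the B cell markers, *Cd79a* was at 57.2 and 44.8 FPKM in unstimulated, 13.4 and 6.96 in control and 1.85 and 2.43 in SMF-treated cells. *Cd79b* was at 32.5 and 28.1 FPKM in unstimulated cells and at most 8.97 in a stimulated library, and *Ms4a1* at 13.8 and 10.1 FPKM and at most 0.864. These 3 markers fell in both stimulated groups. The 6 myeloid markers summed to 116 and 149 FPKM in the unstimulated libraries and to between 41.1 and 53.8 in the stimulated ones, in which *Lyz2* was at 0 and *Csf1r* made up nearly the whole sum. *Ncr1* and *Klrb1c* of NK cells were at 0 in every stimulated library and summed to 13.8 and 7.66 FPKM in unstimulated cells. Erythroid markers summed to between 1.51 and 21.8 FPKM. Of the CD4 T cell markers, *Cd4* was at most 4.68 FPKM in any library. *Foxp3* was between 4.92 and 20.7 FPKM and was called in no comparison. Unstimulated libraries thus held more transcripts of B cell, myeloid and NK cell markers, whose part in the comparisons with stimulated cells was not tested. In bulk RNA, fewer cells of a type and less RNA per cell cannot be told apart. Of the 8 activation markers, 6 rose and 2 fell in each stimulated group, and *Gzmb* was at 10.2 and 11.7 FPKM in unstimulated cells and at 1494 FPKM or more in every stimulated library.

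A pair of sequence sets bears on the results. The first is the pair of mutually exclusive *Pkm* exons on chromosome 9, plus strand of GRCm38, of which a transcript carries either M1 or M2. They are shown because the choice between them sets which pyruvate kinase a cell makes, and because the text gives the share of each. Each exon is coding and 167 bases long. Capitals mark the 64 positions at which they differ, so that 103 bases, or 61.7%, are identical. The M1 exon lies at chr9:59675029-59675195 and the M2 exon at chr9:59675568-59675734, both read from the GENCODE M21 transcripts.
Pkm M1 exon: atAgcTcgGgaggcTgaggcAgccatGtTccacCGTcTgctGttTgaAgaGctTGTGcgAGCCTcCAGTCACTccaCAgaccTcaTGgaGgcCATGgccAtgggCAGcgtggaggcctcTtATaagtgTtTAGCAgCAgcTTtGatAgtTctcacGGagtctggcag
Pkm M2 exon: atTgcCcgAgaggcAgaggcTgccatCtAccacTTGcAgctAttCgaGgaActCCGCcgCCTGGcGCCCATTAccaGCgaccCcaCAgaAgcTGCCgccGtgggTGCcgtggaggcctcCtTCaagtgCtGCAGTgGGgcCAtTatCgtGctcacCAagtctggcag

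The other set is the 250 bases before the RefSeq start of *Ldha*, *Pgk1* and *Hk2*, shown because these genes rose with stimulation and are textbook targets of HIF-1. Capitals mark ACGTG, the core of the hypoxia response element, on either strand, which on the opposite strand reads CACGT. The palindrome CACGTG, the E-box bound by MYC, contains ACGTG and counts as 2 matches. The *Ldha* window at chr7:46845554-46845803 on the plus strand holds 5 matches, 4 of them in 2 E-boxes, and so 3 separate sites. A second *Ldha* window, at chr7:46846832-46847081, holds 0. The *Pgk1* window at chrX:106186850-106187099, plus strand, and the *Hk2* window at chr6:82774455-82774704, minus strand, hold 2 matches each and no E-box.
Ldha: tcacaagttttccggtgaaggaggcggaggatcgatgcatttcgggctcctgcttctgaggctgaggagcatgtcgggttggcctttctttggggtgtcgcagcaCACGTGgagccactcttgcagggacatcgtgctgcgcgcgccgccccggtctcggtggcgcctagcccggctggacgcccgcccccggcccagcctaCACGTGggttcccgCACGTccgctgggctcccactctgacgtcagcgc
Pgk1: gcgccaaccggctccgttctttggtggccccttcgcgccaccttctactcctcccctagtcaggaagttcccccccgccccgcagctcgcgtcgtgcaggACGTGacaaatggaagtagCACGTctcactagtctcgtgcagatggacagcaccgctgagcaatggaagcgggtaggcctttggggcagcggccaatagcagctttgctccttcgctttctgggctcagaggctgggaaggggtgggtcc
Hk2: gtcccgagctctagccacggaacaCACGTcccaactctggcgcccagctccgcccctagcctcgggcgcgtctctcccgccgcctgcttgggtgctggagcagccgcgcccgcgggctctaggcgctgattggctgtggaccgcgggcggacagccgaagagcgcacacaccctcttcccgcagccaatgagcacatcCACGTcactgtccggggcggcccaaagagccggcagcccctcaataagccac

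Promoter windows from RefSeq (GRCm38.p6) were matched for 34 of the 35 genes, *Slc2a3* having no entry. At least 1 window with ACGTG was found for 14 of the 34 genes (41.2%), against 18.5% of all 27025 genes with a window and 25.1% of the 8822 with a window that were tested. The other genes with a match were *Slc2a1*, *Pfkm*, *Pfkfb2*, *Pfkfb3*, *Pgam1*, *Slc16a1*, *Slc16a3*, *Hif1a*, *Aldoa*, *Hk3* and *Pkm*. *Tpi1*, with the largest rise in control over unstimulated cells, had none. Neither had *Hk1*, *Gpi1*, *Pfkl*, *Pfkp*, *Aldoc*, *Gapdh*, *Eno1*, *Pgd* and *Tkt*, which also rose in that comparison. An E-box was found for 6 of the 34 genes (17.6%), against 6.86% of all genes and 9.84% of those tested. The median GC content was 59.2% in the windows of these genes, 59.2% in those of genes tested and 52.4% in all windows. A match of letters is a description and no evidence of a binding site.

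To determine how stimulation alone changed the pathway, control cells were compared with unstimulated cells. Nearly every step from glucose import to lactate export had at least 1 gene that rose, and the steepest rises were in *Tpi1*, *Pgk1* and *Pgam1*. A gene was called where limma gave a change of 2-fold or more with an unadjusted p of 0.05 or less, and by this rule 21 of the 34 genes rose and 2 fell. These are 61.8% and 5.88% of the 34, while 12.3% of all genes tested rose and 12.6% fell by the same rule. The median difference was 1.83 in log2(FPKM + 1) over the 34 genes and -0.05 over all genes tested. The same 21 and 2 genes were called with every library set to 1 median, to 1 protein-coding sum or in TPM, where between 10.8% and 13.4% of all genes rose and between 11.2% and 14.5% fell. Both control libraries lay above both unstimulated ones for 25 of the 34 genes and below them for 3, against 24.8% and 26.6% of all genes. After Benjamini-Hochberg adjustment over all genes tested, 14 of the 34 were under 0.05 in limma, as were 8.48% of all genes. Within each of the 2 folder dates that hold both groups, all 23 called genes moved in the direction of the call, and 19 by at least 2-fold on both dates. The median difference over the 34 genes was 1.88 within the first date and 1.46 within the second. Leaving out 1 library ended the call of *Pfkfb2* whichever was left out, of *Rpe* without either unstimulated library, and of *Slc16a1* and *Hif1a* without unstimulated replicate 1 or either control library. It also ended the call of *Hk1* without unstimulated replicate 1 or control replicate 2, of *Gapdh* without unstimulated or control replicate 1, of *Slc16a3* without control replicate 2 and of *Tkt* without unstimulated replicate 1. The 2 lower calls became 0 without either unstimulated library.

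**Figure D1:**
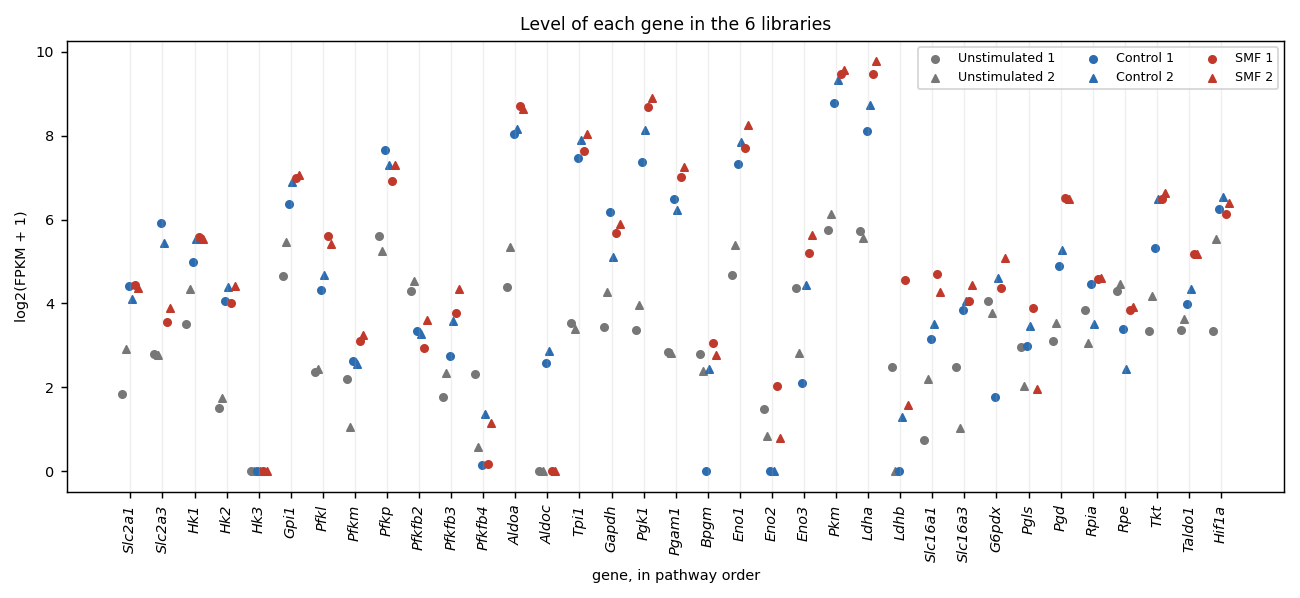
Level of the 35 genes as log2(FPKM + 1) on the y axis, in pathway order on the x axis, with 1 point per library: grey for unstimulated, blue for control and red for SMF-treated cells, circles for replicate 1 and triangles for replicate 2. For most enzymes the grey points lie far below those of the 4 stimulated libraries, as for *Tpi1* at 10.6 and 9.44 FPKM in unstimulated cells and between 174 and 262 FPKM in stimulated cells.

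Glucose import is carried by the facilitative carriers GLUT1 and GLUT3. *Slc2a1*, which encodes GLUT1 (chromosome 4, 119108711 to 119137983, GRCm38), was at 2.60 and 6.59 FPKM in unstimulated, 20.2 and 16.2 in control and 20.6 and 19.6 in SMF-treated cells. All 4 stimulated libraries lay above both unstimulated ones and overlapped with each other. *Slc2a3*, which encodes GLUT3, a carrier of high glucose affinity (chromosome 6, 122727809 to 122801640), was at 5.98 and 5.85 FPKM in unstimulated, 59.6 and 42.2 in control and 10.8 and 13.7 in SMF-treated cells. The 3 groups did not overlap, and the control libraries were the highest. *Slc2a3* rose by 2.89 ± 0.37 (SE) in log2(FPKM + 1) in control over unstimulated cells (8.61-fold in mean FPKM, limma adjusted p = 0.0134), and *Slc2a1* by 1.87. The difference of *Slc2a3* was 2.79 with protein-coding transcripts alone and was then not called. For the called genes of this comparison outside the 10 largest changes, such as *Slc2a1*, the change alone is given; their limma adjusted p lay between 0.0159 and 0.143.

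Hexokinases trap glucose in the cell as glucose 6-phosphate. *Hk1*, the housekeeping isozyme, was at 10.4 and 19.3 FPKM in unstimulated, 30.5 and 45.6 in control and 46.8 and 45.2 in SMF-treated cells. *Hk2*, the isozyme of insulin-sensitive and growing tissues, was at 1.87 and 2.37 FPKM in unstimulated, 15.6 and 19.9 in control and 15.0 and 20.3 in SMF-treated cells. Both rose with stimulation, *Hk2* by 2.58 ± 0.41 (8.37-fold, limma adjusted p = 0.0205) and *Hk1* by 1.33. The share of *Hk2* in the summed FPKM of the hexokinases was 15.2% and 10.9% in unstimulated cells, 33.8% and 30.4% in control cells and 24.3% and 31.0% in SMF-treated cells. *Gpi1*, the isomerase of the next step, was at 24.3 and 43.1 FPKM in unstimulated and 81.1 and 117 FPKM in control cells and rose by 1.56.

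Phosphofructokinase catalyzes the committed step of glycolysis. *Pfkp*, the platelet type, was the leading isozyme with 47.4 and 37.0 FPKM in unstimulated, 200 and 156 in control and 120 and 156 in SMF-treated cells. *Pfkl*, the liver type, was at 4.17 and 4.44 FPKM in unstimulated, 18.9 and 24.4 in control and 47.8 and 42.0 in SMF-treated cells, with no overlap between the 3 groups. Both genes rose in control over unstimulated cells, *Pfkp* by 2.05 and *Pfkl* by 2.08. With protein-coding transcripts alone, the call of *Pfkp* was lost in control (0.58) and in SMF-treated (0.94) over unstimulated cells. *Pfkm*, the muscle type, was between 1.08 and 8.47 FPKM in all libraries and was called only in SMF-treated against unstimulated cells, where it rose by 1.55 and where the call was lost without unstimulated replicate 2 or either SMF library. A near-identical copy of *Pfkm* took between 2.56 and 6.41 FPKM, and with it added the call was also lost.

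The enzymes of the PFKFB family set the level of fructose 2,6-bisphosphate, the activator of phosphofructokinase. *Pfkfb2*, the cardiac isoform, was at 18.7 and 22.3 FPKM in unstimulated, 9.12 and 8.59 in control and 6.70 and 11.2 in SMF-treated cells. It fell by 1.12 in control cells, a call that no omission of a library left standing, and by 1.15 in SMF-treated cells, where the call held only without SMF replicate 2. *Pfkfb3*, the inducible isoform with high kinase activity, was at 2.40 and 4.06 FPKM in unstimulated, 5.67 and 11 in control and 12.7 and 19.3 in SMF-treated cells. Its difference of 1.11 between control and unstimulated cells was not called, while it rose by 2.0 in SMF-treated over unstimulated cells, a call that was lost without unstimulated replicate 1 or SMF replicate 2. The share of *Pfkfb3* in the FPKM of the 3 isoforms was 9.60% and 15.1% in unstimulated, 38.1% and 51.9% in control and 64.9% and 60.9% in SMF-treated cells. *Pfkfb4* was between 0.106 and 3.96 FPKM and was called in no comparison.

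Aldolase and triose phosphate isomerase form the 3-carbon sugars. *Aldoa*, the ubiquitous aldolase, was at 20.1 and 39.6 FPKM in unstimulated, 260 and 284 in control and 418 and 398 in SMF-treated cells, and the 3 groups did not overlap. It rose by 3.22 ± 0.34 in control over unstimulated cells (9.11-fold, limma adjusted p = 0.00964). *Aldoc*, the brain type, was listed at 0 in both unstimulated and both SMF libraries and at 4.98 and 6.31 FPKM in the control libraries. It passed the rule in control against unstimulated cells (limma adjusted p = 0.0439), and no fold is given against a group at 0. Averaging 1.88 FPKM over the 6 libraries, it was tested only through its level in the control libraries. Its calls against either other group are therefore no independent support. It is still counted among the genes that rose here and among those lower in SMF-treated than in control cells. *Tpi1* was at 10.6 and 9.44 FPKM in unstimulated, 174 and 238 in control and 198 and 262 in SMF-treated cells. Its rise of 4.22 ± 0.29 was the largest among the 34 genes in control over unstimulated cells (20.6-fold, limma adjusted p = 0.00577).

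The lower part of glycolysis turns these sugars into pyruvate and recovers ATP. *Gapdh* was at 9.84 and 18.3 FPKM in unstimulated, 71.7 and 33.6 in control and 50.4 and 58.3 in SMF-treated cells, with the control libraries on either side of the SMF libraries. It rose by 1.79 in control over unstimulated cells. *Gapdh* has 41 near-identical copies elsewhere in the genome, which together took between 14.7 and 45.6 FPKM per library, so that its level is uncertain. Copies of *Gpi1*, *Aldoa*, *Tpi1*, *Pgk1*, *Pgam1*, *Eno1*, *Pkm* and *Ldha* took smaller shares, at most 25.9% of the sum with the gene itself (*Pgam1* in unstimulated replicate 2), and adding them ended no call of these 8 genes. *Pgk1*, which makes the first ATP, was at 9.33 and 14.7 FPKM in unstimulated, 164 and 278 in control and 411 and 478 in SMF-treated cells. It rose by 4.07 ± 0.36 (18.4-fold, limma adjusted p = 0.00707). *Pgam1* was at 6.20 and 6.01 FPKM in unstimulated, 89.1 and 73.6 in control and 128 and 151 in SMF-treated cells and rose by 3.53 ± 0.28 (13.3-fold, limma adjusted p = 0.00707). For *Pgk1* and *Pgam1* the 3 groups did not overlap, with unstimulated cells the lowest and SMF-treated cells the highest.

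Among the enolases, *Eno1*, the ubiquitous isozyme, was at 24.4 and 40.9 FPKM in unstimulated, 160 and 230 in control and 206 and 304 in SMF-treated cells. It rose by 2.56 ± 0.37 in control cells (5.97-fold, limma adjusted p = 0.0172). *Eno3*, the muscle type, was at 19.7 and 6.01 FPKM in unstimulated, 3.32 and 20.6 in control and 35.9 and 48.5 in SMF-treated cells, so that unstimulated and control libraries overlapped. *Eno2*, the neuronal type, was listed at 0 in both control libraries and between 0.723 and 3.08 FPKM elsewhere. *Bpgm*, which makes 2,3-bisphosphoglycerate in a side branch, was listed at 0 in control replicate 1 and between 4.24 and 7.36 FPKM elsewhere. Neither *Eno2* nor *Bpgm* was called in any comparison.

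*Pkm*, the pyruvate kinase gene on chromosome 9, was at 52.7 and 69.4 FPKM in unstimulated, 435 and 637 in control and 712 and 761 in SMF-treated cells. It rose by 3.10 ± 0.27 in control over unstimulated cells (8.77-fold, limma adjusted p = 0.00707). Among the 21918 protein-coding genes it ranked 900 and 590 in unstimulated cells and between 32 and 65 in the stimulated libraries. *Ldha*, the lactate dehydrogenase subunit that favours lactate formation (chromosome 7, 46841475 to 46855627), was at 52.4 and 46.3 FPKM in unstimulated, 275 and 425 in control and 708 and 872 in SMF-treated cells. It rose by 2.77 ± 0.28 (7.10-fold, limma adjusted p = 0.00925). *Ldhb*, the heart subunit, was at 4.58 and 0 FPKM in unstimulated, 0 and 1.45 in control and 22.5 and 2.0 in SMF-treated cells. Its 2 SMF libraries lay far apart, and it was called in no comparison. *Ldha* made up between 92.0% and 100% of the FPKM of both subunits in every library.

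The monocarboxylate carriers move lactate over the plasma membrane with protons. *Slc16a1*, which encodes MCT1, was at 0.686 and 3.57 FPKM in unstimulated, 7.86 and 10.4 in control and 25.2 and 18.4 in SMF-treated cells. *Slc16a3*, which encodes MCT4, a carrier of lactate export, was at 4.56 and 1.03 FPKM in unstimulated, 13.4 and 15.6 in control and 15.6 and 20.8 in SMF-treated cells. Both rose in control over unstimulated cells, *Slc16a1* by 1.86 and *Slc16a3* by 2.20.

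In the oxidative arm of the pentose phosphate pathway, *Pgd* rose and *G6pdx* and *Pgls* were not called. *G6pdx*, which encodes the rate-limiting glucose 6-phosphate dehydrogenase, was at 15.7 and 12.7 FPKM in unstimulated, 2.41 and 23.4 in control and 19.7 and 33.0 in SMF-treated cells. The control libraries lay on either side of the unstimulated ones, and control replicate 1 was the lowest of all. *Pgd*, the 6-phosphogluconate dehydrogenase that makes the second NADPH, was at 7.54 and 10.5 FPKM in unstimulated, 28.9 and 37.6 in control and 90.5 and 88.6 in SMF-treated cells, with no overlap between the groups. It rose by 1.78 in control cells. *Pgls*, the lactonase between them, was between 2.87 and 13.9 FPKM, and its 2 SMF libraries held the lowest and the highest value.

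In the non-oxidative arm, *Tkt*, the transketolase, was at 9.18 and 17.0 FPKM in unstimulated, 39.1 and 89.0 in control and 88.5 and 98.2 in SMF-treated cells and rose by 2.15 in control cells. *Taldo1*, the transaldolase, was at 9.27 and 11.4 FPKM in unstimulated, 14.9 and 19.4 in control and 34.95 and 35.3 in SMF-treated cells. Its groups did not overlap, but the difference of 0.67 between control and unstimulated cells was not called. *Rpe*, the ribulose phosphate epimerase, was at 18.6 and 21.2 FPKM in unstimulated, 9.41 and 4.43 in control and 13.3 and 14.2 in SMF-treated cells. It fell by 1.47 in control cells. All *Rpe* FPKM of unstimulated cells and of control replicate 1 was assigned to a transcript of the nonsense-mediated decay class, and all of the other 3 libraries to a protein-coding one. With protein-coding transcripts alone, the direction of this difference turned (1.22, not called). *Rpia*, the ribose phosphate isomerase, was between 7.27 and 23.3 FPKM and was called in no comparison. Of the 7 genes of the pathway, 2 rose and 1 fell in control cells, and of the 26 tested genes of glycolysis and lactate export 18 rose and 1 fell, while 12.3% of all genes rose and 12.6% fell. The difference between these branches was not tested.

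*Hif1a*, which encodes the oxygen-regulated subunit of HIF-1, was at 9.16 and 45.5 FPKM in unstimulated, 75.2 and 91.7 in control and 69.6 and 83.7 in SMF-treated cells. The 2 unstimulated libraries lay far apart. In replicate 2, 30.4 of the 45.5 FPKM was assigned to a noncoding transcript of 484 bases, to which replicate 1 assigned 3.23 FPKM. *Hif1a* rose by 1.95 in control and 1.83 in SMF-treated over unstimulated cells. The first value was 0.85 without unstimulated replicate 1 and 3.05 without unstimulated replicate 2, and the second was 0.73 and 2.93.

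The summed level of the 27 genes of glycolysis and its carriers was 348 and 407 FPKM in unstimulated, 2105 and 2705 in control and 3357 and 3850 in SMF-treated cells. As a share of the FPKM of all protein-coding genes this was 0.147% and 0.164%, 0.798% and 0.984%, and 0.992% and 1.13%. The FPKM sums of control and SMF libraries did not overlap, while by share the lowest SMF library (0.992%) lay close to the highest control library (0.984%). The summed level of the 7 pentose phosphate genes was 80.4 and 83.2 FPKM in unstimulated, 123 and 194 in control and 284 and 295 in SMF-treated cells. As a share of protein-coding FPKM this was 0.0339% and 0.0336% in unstimulated, 0.0465% and 0.0706% in control and 0.0839% and 0.0868% in SMF-treated cells.

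SMF-treated cells were compared with the same unstimulated libraries, so that this comparison is not independent of the previous one. Of the 34 genes, 22 rose and 1, *Pfkfb2*, fell, or 64.7% and 2.94%, while 22.4% of all genes tested rose and 14.8% fell. Among the protein-coding genes tested, 28.0% rose and 10.4% fell. After adjustment, 20 of the 34 were under 0.05 in limma, as were 23.6% of all genes. The median difference was 1.88 over the 34 genes, 0.60 over the protein-coding genes tested and 0.27 over all genes tested. In this comparison *Pfkm*, *Pfkfb3* and *Taldo1* were called, which were not in control cells, and *Slc2a3*, *Aldoc* and *Rpe* were not, which had been. Both SMF libraries lay above both unstimulated ones for 26 of the 34 genes and below them for 2, against 39.7% and 26% of all genes. The calls of *Gapdh* (without unstimulated replicate 1 or SMF replicate 2) and *Hif1a* (without unstimulated replicate 1 or either SMF library) were lost on leaving out 1 library. With every library set to 1 protein-coding sum, 20 rose and 1 fell, against 15.7% and 19.9% of all genes, and the calls of *Pfkm* and *Hif1a* were lost.

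The largest rises in SMF-treated over unstimulated cells were those of *Pgk1* by 5.13 ± 0.36 (37.0-fold, limma adjusted p = 0.00302) and *Tpi1* by 4.38 ± 0.29 (23.0-fold, limma adjusted p = 0.00302). *Pgam1* rose by 4.30 ± 0.28 (22.9-fold), *Ldha* by 3.97 ± 0.28 (16-fold), *Aldoa* by 3.81 ± 0.34 (13.7-fold) and *Pkm* by 3.58 ± 0.27 (12.1-fold), with limma adjusted p between 0.00302 and 0.00401. They were followed by *Pgd* with 3.19 ± 0.32 (9.92-fold, limma adjusted p = 0.00436) and *Pfkl* with 3.11 ± 0.34 (10.4-fold, limma adjusted p = 0.00468). *Slc16a1* rose by 3.02 ± 0.59 (10.2-fold, limma adjusted p = 0.0181) and *Eno1* by 2.95 ± 0.37 (7.82-fold, limma adjusted p = 0.00627). *Slc2a3* differed by 0.93 ± 0.37 (2.07-fold in mean FPKM, with no overlap) and stayed just under the fold required on the log2(FPKM + 1) scale.

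**Figure D2:**
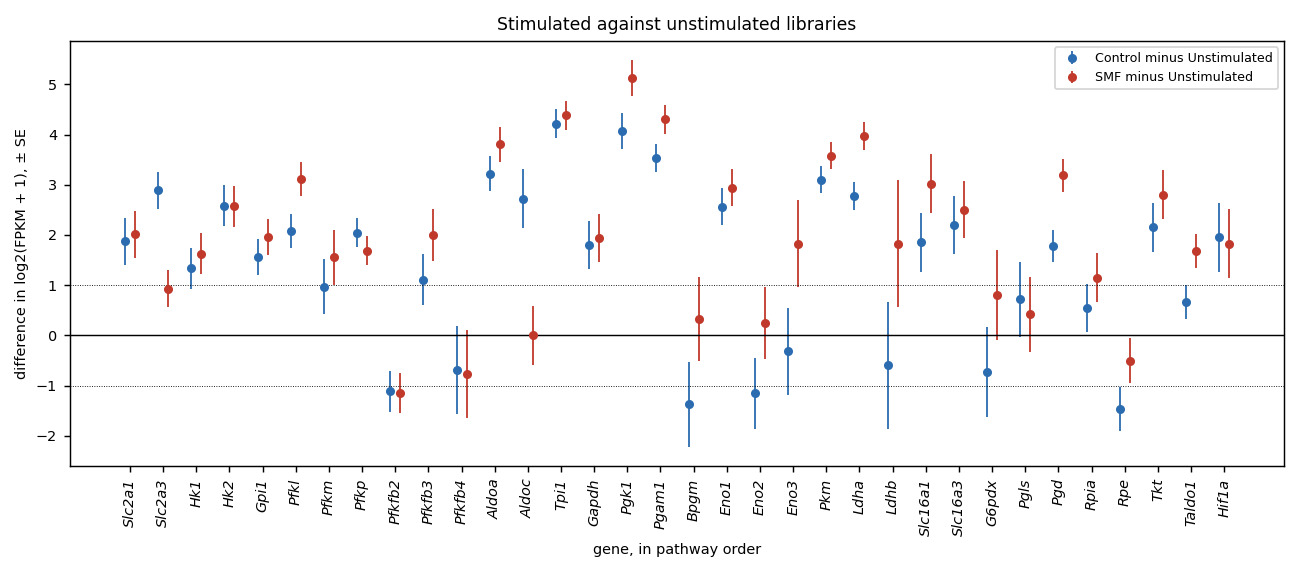
Differences in log2(FPKM + 1) on the y axis for the 34 genes tested, in pathway order on the x axis, between control and unstimulated libraries (blue) and between SMF and unstimulated libraries (red). Points are limma estimates from 2 libraries a group, bars are ± 1 SE, and dotted lines mark a 2-fold change. Both comparisons share the unstimulated libraries, and the points of *Slc2a3* (2.89 and 0.93) and *Pgd* (1.78 and 3.19) lie well apart.

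To determine whether the pathway differed with the static magnetic field, SMF-treated cells were compared with control cells. *Pfkl*, *Pgk1*, *Eno3*, *Ldha*, *Pgd* and *Taldo1* were higher and *Slc2a3* and *Aldoc* lower in SMF-treated cells. These 6 and 2 genes are 17.6% and 5.88% of the 34, while 12.5% of all genes tested were higher and 5.72% lower. Of the 10298 protein-coding genes tested, 15.9% were higher and 2.57% lower. Against protein-coding genes, the share of higher genes was thus near and that of lower genes larger, while the latter was near that of all genes. The lower share rests on 2 genes, of which *Aldoc* was tested only through its level in the control libraries. After Benjamini-Hochberg adjustment 0 of the 34 were under 0.05 in limma, the smallest adjusted p being 0.136, and 9 had an unadjusted p under 0.05. Of all genes tested, 0.0267% were under 0.05 after adjustment. The median difference was 0.59 over the 34 genes, 0.57 over the protein-coding genes tested and 0.32 over all genes tested. With every library set to 1 protein-coding sum, 1 gene, *Pgd*, was higher and *Slc2a3* and *Aldoc* were lower, against 6.21% and 8.72% of all genes. The medians were then 0.27 over the 34 genes and 0.06 over all genes tested. No median over the protein-coding genes alone was taken under this scaling, so that the gap to all genes shows no excess over protein-coding genes. The same 3 genes were called with every library set to 1 median, where 5.85% and 9.61% of all genes were called.

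The SMF libraries were both higher than either control library for 19 of the 34 genes and both lower for 2, with 13 overlapping. Of all genes tested, 37.4% were higher in this way and 17.4% lower. After scaling to 1 protein-coding sum, 14 lay above and 4 below (*Slc2a3*, *Pfkp*, *Aldoc* and *Hif1a*), against 28.5% and 22.7% of all genes. These shares were not taken over protein-coding genes alone. Under that scaling the sign of the difference turned from positive to negative for *Slc2a1*, *Hk1*, *Tpi1*, *Gapdh* and *Slc16a3*, none of which was called under either scaling.

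*Pgd* differed by 1.41 ± 0.32 in log2(FPKM + 1) between SMF-treated and control cells (2.69-fold, limma adjusted p = 0.141) and by 1.08 after protein-coding scaling. *Ldha* differed by 1.198 ± 0.28 (2.26-fold, limma adjusted p = 0.144) and by 0.86 after scaling. *Pgk1* differed by 1.05 ± 0.36, *Pfkl* by 1.03 ± 0.34 and *Taldo1* by 1.01 ± 0.34, with limma adjusted p between 0.189 and 0.194. After scaling these 3 differences were 0.72, 0.70 and 0.69. *Eno3* differed by 2.14 ± 0.87 (limma adjusted p = 0.234), with control libraries at 3.32 and 20.6 FPKM, and was at 1.83 after scaling. Without control replicate 1 the calls of *Pfkl*, *Pgk1*, *Eno3*, *Ldha* and *Taldo1* were lost, and the difference of *Eno3* was 0.98. Without control replicate 2 it was 3.31. The calls of *Pfkl*, *Pgk1*, *Eno3* and *Taldo1* were also lost without either SMF library. Only the higher call of *Pgd* held without any 1 library. The calls of *Pgk1* (1.04), *Eno3* (2.12) and *Taldo1* (1.78) were lost with protein-coding transcripts alone.

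*Slc2a3* was lower by 1.96 ± 0.37 in SMF-treated than in control cells (mean FPKM of 12.2 against 50.9, limma adjusted p = 0.136), and by 2.27 after protein-coding scaling. Its call held without any 1 library, with differences between -2.20 and -1.72. In control replicate 1, 55.8 FPKM was assigned to a transcript of 6253 bases with a retained intron, and in control replicate 2, 38.6 FPKM to the protein-coding transcript of 3959 bases. With protein-coding transcripts alone the difference was -1.76 and the call was lost. The bases covered over all *Slc2a3* transcripts, summed over both kinds, were 50.1 and 46.4 per Mb of library in unstimulated, 461 and 206 in control and 58.7 and 94.6 in SMF-treated cells. The control libraries were above the SMF libraries here too, but these bases come from the same StringTie estimates as the FPKM. They include the transcript with a retained intron, so that they are no independent support for the call. *Aldoc*, tested only through its level in the control libraries, passed the rule here too (limma adjusted p = 0.140). Its covered bases were 1.17 and 2.38 kb in the control libraries and 0 in the SMF libraries.

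**Figure D3:**
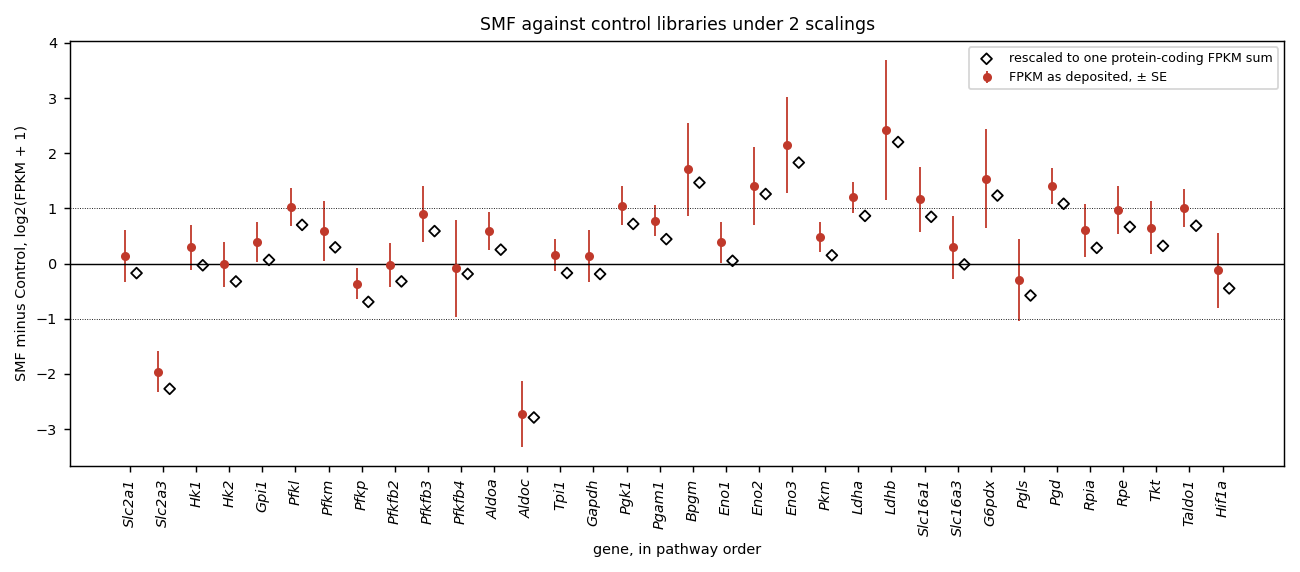
Difference between SMF and control libraries in log2(FPKM + 1) on the y axis for the 34 genes tested, in pathway order on the x axis. Red points are limma estimates from 2 libraries a group on FPKM as deposited, with bars of ± 1 SE, and open diamonds are the same differences with every library scaled to 1 protein-coding FPKM sum. Every diamond lies below its point, and *Slc2a3* (-1.96 and -2.27) and *Aldoc* stand below the lower dotted line of a 2-fold change under both.

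Of the summed FPKM of both glucose carriers, *Slc2a3* took 69.7% and 47.0% in unstimulated, 74.7% and 72.3% in control and 34.3% and 41.2% in SMF-treated cells, so that the control and SMF libraries did not overlap on all transcripts. Its share of protein-coding transcripts alone was 5.04% and 70.4% in control and 11.7% and 3.66% in SMF-treated cells, and the groups overlapped. Within phosphofructokinase, *Pfkl* took 7.57% and 10.4% in unstimulated, 8.43% and 13.2% in control and 27.2% and 20.3% in SMF-treated cells. *Pfkp* took between 84.2% and 89.3% in the first 4 libraries and 68.4% and 75.6% in SMF-treated cells. These shares do not depend on the scaling of a library, and they are given as values with no test. Of protein-coding transcripts alone, *Pfkl* took 18.1% and 28.9% in control and 40.9% and 36.0% in SMF-treated cells, again without overlap. Among enolases, *Eno1* took between 84.1% and 98.0% in the stimulated libraries. *Slc16a1* took 13.1% and 77.5% of the lactate carriers in unstimulated cells, whose replicates lay far apart, and between 37.0% and 61.7% in the others.

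**Figure D4:**
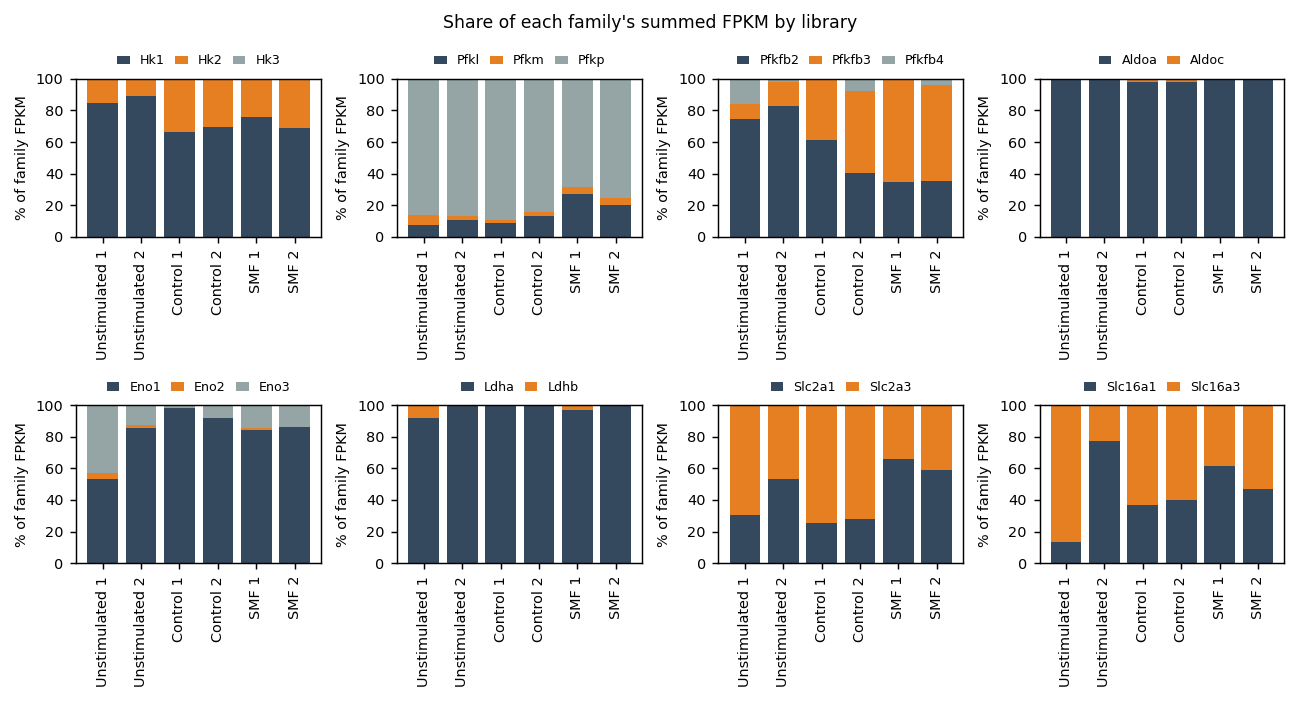
Share of each family's summed FPKM, in percent on the y axis, taken by each isozyme in the 6 libraries on the x axis, 1 panel per family and 1 bar per library. The boundary between *Slc2a1* and *Slc2a3* is higher in both SMF libraries, where *Slc2a1* takes 65.7% and 58.8%, than in both control libraries, where it takes 25.3% and 27.7%. All transcripts are counted, and with protein-coding transcripts alone these groups overlap.

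The M2 exon of *Pkm* dominated in every library. Among transcripts that hold either exon, it took 97.5% and 100% of the FPKM in unstimulated, 100% and 59.0% in control and 99.9% and 65.8% in SMF-treated cells. The M1 share was thus 0% or up to 2.54% in 4 libraries and 41.0% and 34.1% in control replicate 2 and SMF replicate 2. Transcripts with neither exon took 133 and 170 FPKM in control and 93.7 and 173 FPKM in SMF-treated cells and were at 0 in unstimulated cells. In control replicate 2, 124 of the 191 FPKM with the M1 exon came from a transcript of 747 bases with a retained intron, and the full-length M1 transcript was at 67.8 FPKM. In SMF replicate 2, 160.5 of the 200.8 FPKM with the M1 exon came from the full-length M1 transcript. The replicates of both stimulated groups differed more than the groups, and control and SMF libraries overlapped.

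Of 35 further enzymes and carriers around the pathway, 21 were tested. In control over unstimulated cells 6 of them rose and 2 fell, with a median difference of 0.10, against 12.3% and 12.6% of all genes. *Pdk3*, a kinase that inhibits pyruvate dehydrogenase, was at 0 and 0.517 FPKM in unstimulated, 8.67 and 16.8 in control and 31.4 and 32.1 in SMF-treated cells and rose by 3.41 ± 0.50 in control cells (limma adjusted p = 0.0178). *Bsg*, the chaperone of the lactate carriers, was at 9.33 and 15.6 FPKM in unstimulated, 110 and 116 in control and 174 and 165 in SMF-treated cells (3.12 ± 0.31, limma adjusted p = 0.00903). *Prps1*, which makes the ribose donor of nucleotide synthesis, was at 0 and 5.25 FPKM in unstimulated, 20.6 and 16.6 in control and 55.8 and 57.5 in SMF-treated cells (2.96 ± 0.83, limma adjusted p = 0.0812). *Ldhd*, the D-lactate dehydrogenase, was at 147 and 109 FPKM in unstimulated, 25.5 and 15.1 in control and 8.53 and 6.95 in SMF-treated cells (-2.63 ± 0.38, limma adjusted p = 0.0174). In SMF-treated against control cells, 1 of the 21 was higher (*Pdk3*) and 3 were lower (*Gapdhs*, *Ldhd* and *Mpc1*), against 12.5% and 5.72% of all genes. *Gapdhs* and *Mpc1* were named only after their values were seen.

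Of 7 opposing enzymes and brakes, 3 were tested, and 0 rose and 1 fell in control cells, against 12.3% and 12.6% of all genes. The gene that fell was *Txnip*, which promotes the uptake of glucose carriers from the membrane (65.0 and 63.9 FPKM in unstimulated, 21.1 and 17.0 in control and 11.3 and 10.4 in SMF-treated cells, -1.71 ± 0.31, limma adjusted p = 0.0285). The gluconeogenic *Fbp1*, *Fbp2* and *Pck1* were listed at 0 in every library. Of 8 regulators, 7 were tested, of which 3 rose and 0 fell in control cells, against 12.3% and 12.6% of all genes. *Egln3* and *Egln1*, oxygen-sensing hydroxylases that mark HIF-1 for degradation, were among them. *Egln3* was at 0 in both unstimulated libraries, 21 and 10.7 FPKM in control and 3.68 and 5.17 in SMF-treated cells, and was lower in SMF-treated than in control cells by the same rule (-1.58 ± 0.55, limma adjusted p = 0.198). *Egln1* was at 5.44 and 3.26 FPKM in unstimulated, 23.4 and 13.5 in control and 22.8 and 20.6 in SMF-treated cells. *Myc* was at 11.1 and 16.5 FPKM in unstimulated, 20.8 and 43.1 in control and 30.6 and 36.4 in SMF-treated cells, with overlap between the stimulated groups. *Arnt*, the partner subunit of HIF-1, was at 3.86 and 4.91 FPKM in control and 17.8 and 10.8 in SMF-treated cells (1.47 ± 0.45, limma adjusted p = 0.174).

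Of 10 HIF-1 targets outside glycolysis, 8 were tested, and 7 rose and 0 fell in control over unstimulated cells, with a median difference of 2.19, against 12.3% and 12.6% of all genes. *Vegfa*, the vascular growth factor, was at 0 in both unstimulated libraries, 23.8 and 6.81 FPKM in control and 4.78 and 4.92 in SMF-treated cells. *Ero1l*, an oxidase of the endoplasmic reticulum, was at 5.48 and 2.32 FPKM in unstimulated, 45.9 and 36.9 in control and 21.3 and 35.1 in SMF-treated cells. *Ankrd37* was at 0 and 2.95 FPKM in unstimulated, 15.7 and 11.9 in control and 5.86 and 15.0 in SMF-treated cells. It shares 57 bases on the opposite strand with *Ufsp2*, which rose in control cells, and 344 with *Lrp2bp*, which was not called. *Bnip3* and *Higd1a*, which also rose and are named only for this, share 504 and 683 bases with *Gm45507* and *Gm47112*. *Gm45507* was at 34.5 and 36.3 FPKM in unstimulated and 1468 and 1376 in control cells. *Gm47112* rose too. The part of these partners was not tested. In SMF-treated against control cells 0 of the 8 were higher and 1 was lower, against 12.5% and 5.72% of all genes. The median difference was -0.35 against 0.32 over all genes. The lower gene was *Car9*, a carbonic anhydrase at 3.25 and 1.40 FPKM in unstimulated, 8.66 and 2.0 in control and 0 in both SMF libraries (limma adjusted p = 0.179). It passed the filter of 1 FPKM partly through its control level, so that its call is no independent support.

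For 12 of the 35 genes, exons faced those of another gene on the opposite strand, and the values of these partners are given because strand decides to which of the pair a read is counted. In control over unstimulated cells 5 of the 12 partners rose and 0 fell, while 12.3% of all genes rose and 12.6% fell, and 10.3% of those of the antisense type rose and 19.6% fell. *Gm12868*, which shares 105 bases with *Slc2a1*, was at 5.89 and 9.54 FPKM in unstimulated, 29.7 and 26.8 in control and 3.44 and 2.17 in SMF-treated cells. *Gm26762*, which shares 741 bases with *Gpi1*, was at 29.6 and 33.4 FPKM in unstimulated, 88.1 and 194 in control and 38.1 and 51.4 in SMF-treated cells. *Gm15283*, which shares 330 bases with *Hif1a*, was at 4.63 and 48.4 FPKM in unstimulated, 196 and 282 in control and 104 and 171 in SMF-treated cells. In SMF-treated against control cells 3 of the 12 were lower, *Gm12868* by 2.96 ± 0.44 (limma adjusted p = 0.136), *Gm26762* by 1.54 ± 0.43 (limma adjusted p = 0.166) and *Fam57b*, which faces *Aldoa* over 25 bases, by 1.15 ± 0.47 (limma adjusted p = 0.235). Only *Pitrm1*, which shares 748 bases with *Pfkp*, was higher, while 12.5% of all genes were higher and 5.72% lower.

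The partners of *Slc2a1* and *Gpi1* were thus lower in SMF-treated than in control cells, while *Slc2a1* and *Gpi1* themselves were not called. Among all 1151 genes of the antisense type that were tested, 1.3% were higher and 20.8% lower in SMF-treated than in control cells, against 15.9% and 2.57% of the 10298 protein-coding genes. The part of this difference between strands in the SMF results was not tested. *Txnip* faces *Gm15441* over 606 bases, which was at 1463 and 1186 FPKM in unstimulated, 447 and 328 in control and 105 and 124 in SMF-treated cells, in the same order as *Txnip* itself.

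**Figure D5:**
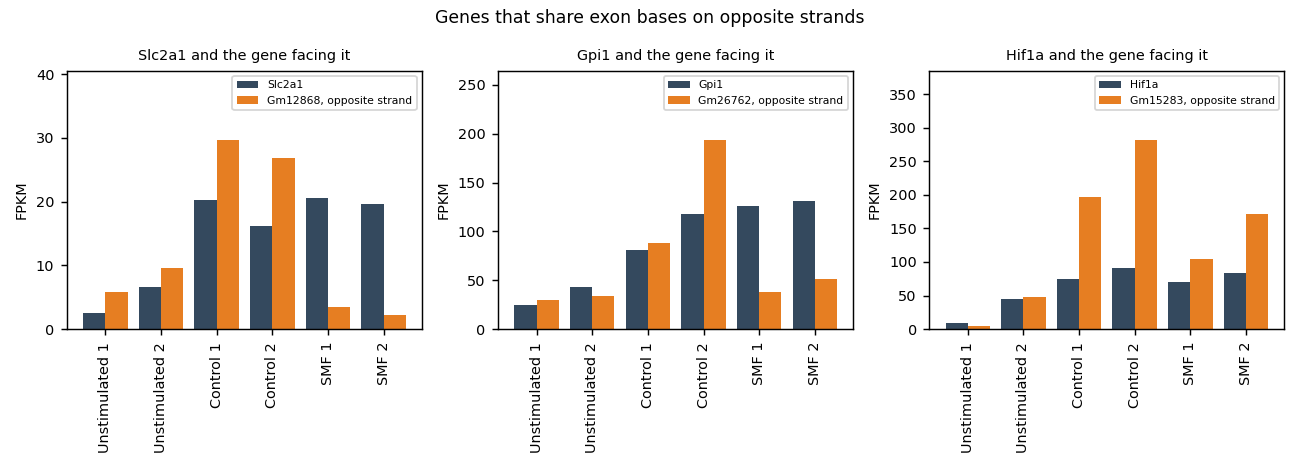
FPKM on the y axis of *Slc2a1*, *Gpi1* and *Hif1a* (dark bars) and of the gene that shares exon bases with each on the opposite strand (orange bars) in the 6 libraries on the x axis. *Gm12868* drops from 29.7 and 26.8 FPKM in the control libraries to 3.44 and 2.17 in the SMF libraries, while *Slc2a1* stays between 16.2 and 20.6 FPKM in the 4 stimulated libraries.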

How the data were processed

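Per the labels and the study's methods, total RNA of 6 libraries was made into stranded libraries with the SMARTer Stranded Total RNA-Seq Pico kit and sequenced. The submitters' processing notes name Trimmomatic 0.36, HISAT2 and StringTie, and per the file headers StringTie 1.3.5 estimated the transcripts of GENCODE M19 with reads set as stranded. The deposited files give FPKM, TPM and coverage for 137767 transcripts each. A further FPKM table was not used, since its 3 value columns matched no sample. FPKM was summed over the transcripts of a gene, and log2(FPKM + 1) of the 14991 genes with a mean FPKM of 1 or more was fitted over the 3 groups with limma 3.58.1 in R 4.3.3 (variance trend, 3 residual degrees of freedom), adjusted by Benjamini-Hochberg over all of them. Fold changes on this scale understate the change of low genes, and folds given as such are ratios of mean FPKM. The fit was tested on simulated data. Coverage times transcript length gave covered bases. The read depth is not given in the files, so no counting interval is given. Near-identical copies were transcripts aligned by minimap2 2.31 over at least 200 bases at 95% identity. Sums and counts were made with pandas 2.3.3 and numpy 2.4.6 (Python 3.11.15). Transcript types came from GENCODE M21, promoter windows from RefSeq.

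All 35 genes are named. In each comparison, at most 10 called genes by size of change have full statistics. From each further list at most 4 called genes with the largest change are named, besides those said to be named for another reason. The genes, lists and tests were chosen with earlier results of these data known. Alternatives were other pseudocounts, filters, scalings, units, fold limits and variance models, the replicate block, copies added, leaving out each library, and, chosen after seeing the data, protein-coding transcripts alone. A further marker gene is not reported here.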

Additional observations from a re-analysis of the deposited data

How the results depend on the processing

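The counts of 21 and 22 genes higher in control and SMF-treated over unstimulated cells stayed within 1.5 times under every alternative run. With a pseudocount of 5, 1 gene was lower in control and 0 in SMF-treated cells, with medians over the 34 genes of 1.33 and 1.55. With protein-coding transcripts alone, 0 genes were lower in control and 0 in SMF-treated against unstimulated cells, 1 was lower in SMF-treated against control cells, and the difference of *Rpe* between control and unstimulated cells was 1.22. Setting every library to 1 median gave a median of 1.63 for SMF-treated over unstimulated cells, and for SMF-treated over control cells 1 gene higher and a median of 0.244. Setting every library to 1 protein-coding sum gave 1.475, 1 gene and 0.269. With a mean of at least 5 FPKM, 1 gene was lower in SMF-treated than in control cells, since *Aldoc* was then not tested. The cause of the other changes was not tested.

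Leaving out 1 library at a time, between 0 and 3 genes were lower in control than in unstimulated cells and the median ran from 1.355 to 1.98. For SMF-treated against unstimulated cells these were 0 to 1 genes and 1.77 to 2.17. For SMF-treated against control cells, 2 to 8 genes were higher and the median ran from 0.38 to 0.641. With 1 library left in a group, that library is assumed to vary like the others.

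Same-numbered libraries deviated together only weakly from their group means over 14991 genes. The r was 0.0963 for unstimulated with control, 0.0301 for unstimulated with SMF and 0.0206 for control with SMF. The numbers were therefore not taken to pair them, though a weak r does not exclude a pairing by folder date. The replicate block is no block of dates, since it separates the SMF libraries, which share their date. With the replicate block, 21 genes rose and 2 fell in control, 23 rose and 1 fell in SMF-treated over unstimulated cells, and 5 were higher and 2 lower in SMF-treated than in control cells, where the call of *Eno3* was lost. The covered bases were fewest in control replicate 1 (64.4 Mb) and unstimulated replicate 1 (67.4 Mb).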
